A study of Mus musculus with 12 samples.

Results

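The genes described here make cyclic GMP in photoreceptor outer segments and couple its synthesis, and the shutoff of the light response, to calcium. The set was defined by name as the retinal membrane guanylate cyclases Gucy2e and Gucy2f, the guanylate cyclase activating proteins Guca1a and Guca1b, recoverin (Rcvrn) and the cyclase regulator Rd3. The names were chosen with earlier results of these data known. Every probe set of the array annotated with a single symbol among these 6 names was taken. That gave 7 probe sets of 5 genes among 45101 probe sets, with a pair of probe sets each for Guca1b and Rd3. Gucy2f had no probe set with that single symbol and was not analysed here.

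Expression was measured in dissected mouse retina on postnatal day 1 (P1) and postnatal day 12 (P12), with 3 arrays in each of 4 groups. Controls carried otx2 flox/flox; Crx-Cre- and conditional knockout (CKO) retinas carried otx2 flox/flox; Crx-Cre+, so the floxed alleles were common to all 12 arrays and the groups at each age differed by the transgene. Otx2 is a homeodomain transcription factor needed for photoreceptor fate. The Crx promoter directs Cre to developing photoreceptors, and Otx2 in cells that Cre does not reach is outside the deletion. Which other retinal cells Cre reached is not given in the sources used here, and bipolar markers were lower at P12 too. Whether retinas of several animals were pooled for an array is not given in the sources used here, and the p-values below measure the spread between these arrays.

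In the dark, cyclic GMP holds the outer segment cation channel open and calcium enters. Light activates the phosphodiesterase PDE6, cyclic GMP falls, the channel closes, and the exchanger lowers calcium. The guanylate cyclase activating proteins then stimulate the membrane cyclases and refill the pool, which is the main feedback behind recovery from light and light adaptation. Recoverin holds the kinase Grk1 in check while calcium is high. RD3 keeps the cyclases inactive on their way to the outer segment and is needed for them to get there. All of these are known as photoreceptor proteins.

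The targeted gene was lower in the CKO at both ages. The Otx2 signal on the control arrays at P1 was 376, 358 and 282.9, against 143.8, 107.8 and 154 in the CKO. At P12 it was 1058, 1048 and 802.9 in control and 245, 166.8 and 107.9 in the CKO, a 5.60-fold difference (limma, adjusted p = 5.33e-05). The 2.51-fold difference at P1 did not pass (limma, adjusted p = 0.175), although each control array lay above each CKO array. That fit shares the spread of all 4 groups. With only the P1 arrays in the fit the difference passed (limma, adjusted p = 0.0242), and with the replicate number as a block it did not (limma, adjusted p = 0.0575). The position of the Otx2 probe set against the floxed part is not given in the sources used here, so it checks the labels only as far as it detects the deletion. A free-text description named the other genotype for 8 of the 12 samples, and the groups were taken from title, source and genotype, with which the Otx2 signal goes. Signals were not scaled to a common target, and the 2% trimmed mean of an array ran from 21.8 to 30.1 at P1 and from 96.4 to 171.6 at P12.

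Sequence upstream of a transcript start was at hand for 4 of the 6 genes (RefSeq, GRCm38.p6). Otx2 and its relative Crx are homeodomain proteins whose known core site is TAATCC. The stretches of Gucy2e and Guca1a are shown because these are the measured genes that hold this run of letters, here read on the opposite strand as GGATTA and set in capitals. Each shows the 250 bases before the start in the direction of transcription, from chr11:69237023-69237272 and chr17:47400607-47400856, both on the minus strand.
Gucy2e: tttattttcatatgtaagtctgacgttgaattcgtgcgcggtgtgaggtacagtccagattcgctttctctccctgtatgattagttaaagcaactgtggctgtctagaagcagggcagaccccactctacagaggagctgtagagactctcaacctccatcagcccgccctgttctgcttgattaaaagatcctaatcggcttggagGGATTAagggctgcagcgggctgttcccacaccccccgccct
Guca1a: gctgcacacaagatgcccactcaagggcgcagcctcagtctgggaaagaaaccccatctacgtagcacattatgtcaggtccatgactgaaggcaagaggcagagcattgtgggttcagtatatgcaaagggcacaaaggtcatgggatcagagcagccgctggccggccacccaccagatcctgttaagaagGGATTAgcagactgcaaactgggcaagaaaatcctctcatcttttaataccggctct

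The match lay 42 to 37 bases before the start in Gucy2e and 57 to 52 bases before it in Guca1a. Gucy2f, which the array did not measure under its own symbol, held 2 matches, one in each orientation, at 84 to 79 and at 59 to 54 bases before its start. The windows at the 2 annotated starts of Rd3 held none. Over all promoter windows of 250 bases, 2054 of 32851 (6.25%) held TAATCC on either strand. A run of letters is not a binding site, its absence says only that these letters are not in this window, and the outer boundary of these genes in RefSeq lies further upstream than the starts used here. Guca1a and Guca1b are neighbours on chromosome 17 with 0 annotated genes between them.

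At P12 all 5 measured genes were lower in the Otx2 CKO retina, and on their main probe sets no CKO array reached the level of any control array. A signal of 50 was used as the limit of a reliable level, and in the CKO only the means of recoverin and Guca1a stayed above it. The main probe set of a gene is the one with the highest mean signal over the 12 arrays.

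**Figure D1:**
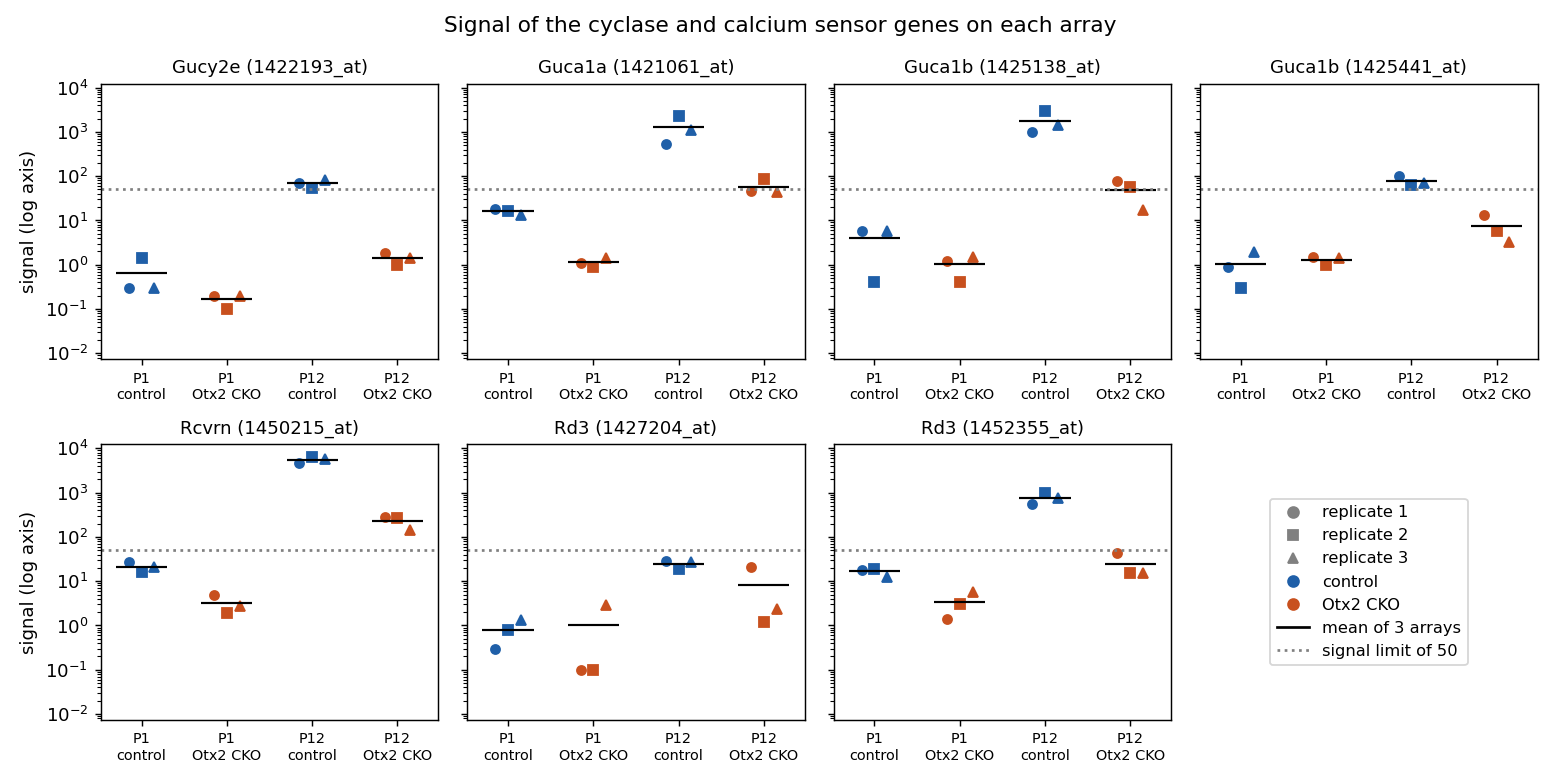
Signal of each probe set (log axis) on the 3 arrays of each group, with replicate numbers as symbols, the mean as a bar and the signal limit of 50 dotted. Control arrays at P12 (blue) lie above the CKO arrays (orange) in every panel except Rd3 1427204_at, where CKO replicate 1 lies at 21 within the control range, and every P1 array lies under the limit.

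Gucy2e encodes the guanylate cyclase of rods and cones, GC-E. Its signal was 69, 54.8 and 81.5 on the P12 control arrays and 1.8, 1 and 1.4 on the CKO arrays. The control signals stood only just above the limit and the CKO signals were at the floor of the array. The log2 change was -2.27 ± 0.16 (SE) on the scale of log2(signal + 16), which understates the change of a dim gene (limma, adjusted p = 1.06e-06). Against the limit of 50 the control mean of 68.4 ± 13.4 (SD, n = 3) allowed only the statement of an at least 1.37-fold difference. Scaling all 12 arrays together, or a limit of 100, left Gucy2e under the limit and untested, with the direction kept.

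Guca1a encodes GCAP1, a calcium-binding activator of the cyclases. The P12 control arrays gave 526.1, 2239 and 1123 and the CKO arrays 45.6, 85.3 and 43.8. The groups were far apart although the controls spread widely, with replicate 2 highest in each genotype. The means differed 22.3-fold, and the log2 change was -3.96 ± 0.40 (SE, limma, adjusted p = 2.65e-05).

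Guca1b encodes GCAP2, the other activator. The main probe set, 1425138_at, read 984.2, 2956 and 1422 in control and 76.1, 56.1 and 17.3 in the CKO. With the CKO mean under the limit, the means differed at least 35.8-fold, and the log2 change was -4.75 ± 0.41 (SE, limma, adjusted p = 6.05e-06). The dimmer probe set, 1425441_at, gave the same direction, with 99, 64.4 and 69.3 against 13.3, 5.8 and 3.3. Its log2 change was -2.0 ± 0.21 (SE, limma, adjusted p = 3.09e-05). The 2 probe sets did not rank the control arrays alike, since replicate 2 was highest on the first and lowest on the second.

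Rcvrn, the calcium sensor that acts on Grk1, read 4570, 6409 and 5751 in control and 276.1, 270.3 and 146.8 in the CKO. It was the member with CKO signals above the limit on every array. The means differed 24.1-fold, with a log2 change of -4.54 ± 0.25 (SE, limma, adjusted p = 5.68e-07).

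Rd3, the cyclase inhibitor and trafficking partner, read 542, 960.7 and 770.7 in control and 42.9, 15.6 and 15.5 in the CKO on 1452355_at. With the CKO mean under the limit, the means differed at least 15.2-fold, and the log2 change was -4.28 ± 0.29 (SE, limma, adjusted p = 9.20e-07). The second probe set, 1427204_at, stayed under the limit in each group and was not tested. It read 28.2, 18.8 and 27.5 in control and 21, 1.2 and 2.4 in the CKO, so that here the groups overlapped through CKO replicate 1.

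**Figure D2:**
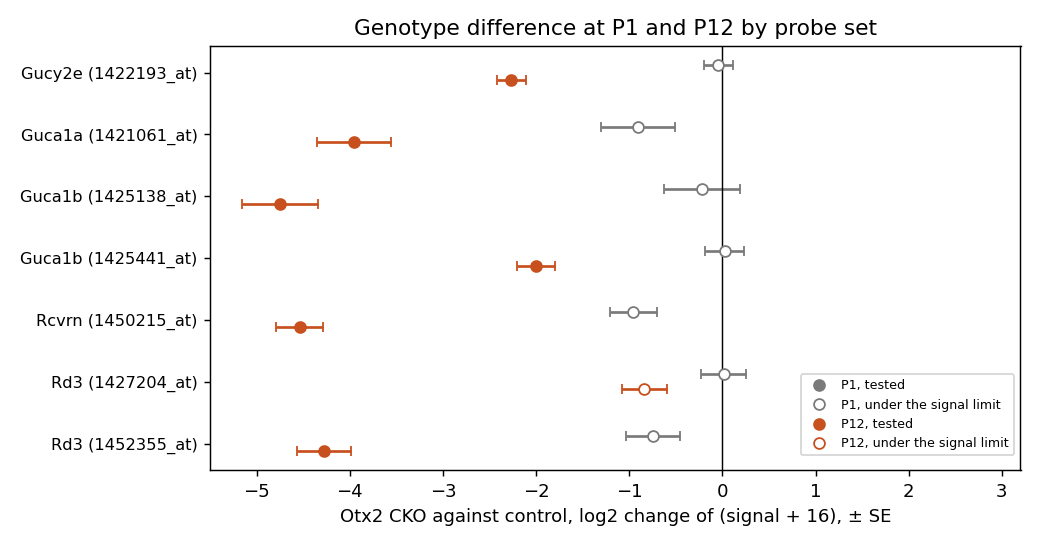
Log2 change of (signal + 16) between Otx2 CKO and control for each probe set at P1 (grey) and P12 (orange), with the SE of the limma fit as error bars and open symbols where the signal limit was not reached. The 6 tested P12 values lie between -4.75 and -2.0, whereas P1 values lie between -0.96 and 0.02.

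By the count, 5 of 5 genes and 6 of 6 tested probe sets passed as lower at P12, where 4.48% of the 21390 probe sets tested did. Over all probe sets 959 were lower and 2990 higher on the deposited scale, against 1447 lower and 1361 higher after quantile normalization of the 12 arrays. Without a signal limit the control arrays lay wholly above the CKO arrays for 5 of 5 genes and 6 of 7 of their probe sets, against 4.26% of all 45037 probe sets. The median log2 change of the 5 genes was -4.28, beside 0.39 over all probe sets tested. That overall median lay above 0 on the deposited scale and between 0.06 and 0.10 under the 4 other scalings. Ordered by size of fall, Guca1b ranked 25, Rcvrn 36, Rd3 49, Guca1a 71 and Gucy2e 223 of the 21390.

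The signal that was left can be read as a share of the P12 control mean on each CKO array. For Rcvrn it was 4.95%, 4.85% and 2.63%. For Guca1a it was 3.52%, 6.58% and 3.38%, with replicate 2 standing above the others. For Guca1b it was 4.26%, 3.14% and 0.968%, and replicate 3 was lowest. For Rd3 it was 5.66%, 2.06% and 2.05%. For Gucy2e it was 2.63%, 1.46% and 2.05%, though these readings are at the array's floor. The dimmer Guca1b probe set kept 17.1%, 7.48% and 4.25%, nearer its own floor. On the main probe sets no member kept more than 7.75% on any CKO array under any of the 5 scalings (the deposited one included), and the order of the CKO arrays within a gene often changed with the scaling. Under all 5 scalings Guca1a was highest in replicate 2, Rd3 was highest in replicate 1, and Guca1b and Rcvrn were lowest in replicate 3.

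**Figure D3:**
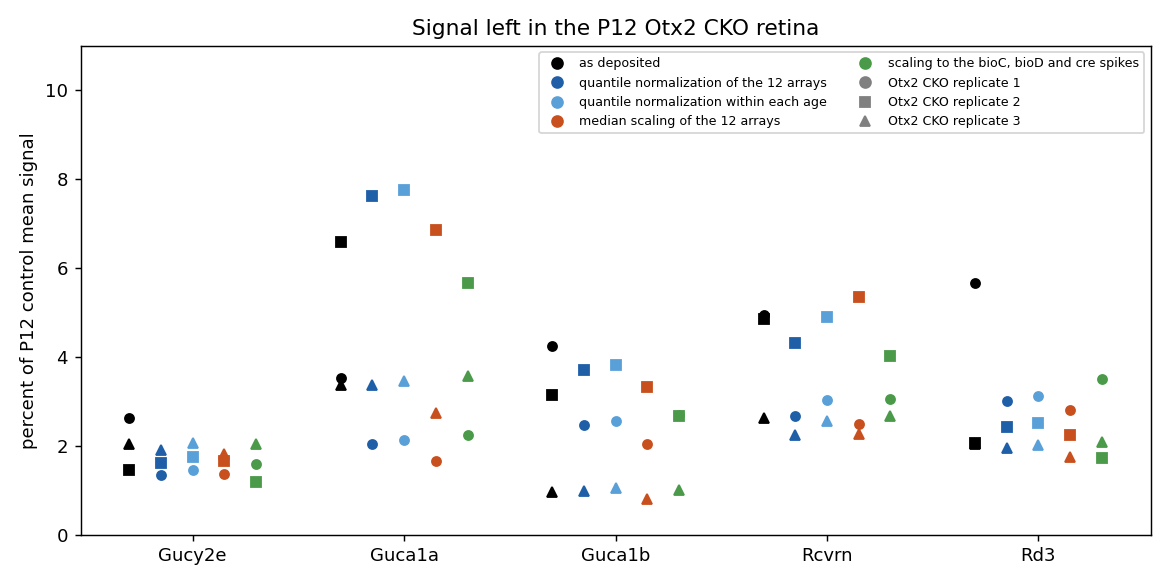
Signal on each P12 Otx2 CKO array as a percent of the P12 control mean of the same gene, with colours for the 5 scalings and symbols for the replicates. All points lie under 8, and Guca1a replicate 2 is the highest point under every scaling, from 5.67% to 7.75%.

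In whole retina, fewer photoreceptors and less RNA in each photoreceptor cannot be told apart. The summed signal of 5 rod markers on the CKO arrays was 6.48%, 6.12% and 2.76% of its P12 control mean, and 5 of 5 were lower. The sum of 6 cone markers was 6.34%, 5.52% and 3.45%, with 6 of 6 lower. Set against the sums of the same array as deposited, the shares of Rcvrn, Guca1b, Rd3 and Gucy2e lay below both on all 3 CKO arrays. Guca1a lay below both on replicate 1, above both on replicate 2 and between them on replicate 3. In the CKO the rod sum was weighted toward Sag, with a mean of 753 against at most 254.1 for the other rod markers. Sag also fell least (log2 change -3.51), beside Cnga1 (-4.37), Gnat1 (-4.70), Nrl (-4.94) and Pde6b (-5.61). A share below the rod sum is therefore not a larger fall than that of each rod marker. Replicate 3 was the lowest of the CKO arrays for Rcvrn, Guca1b, the rod list and the cone list. The part of photoreceptor number in the fall of the members was not tested. Lists of other retinal cells moved too. Of the bipolar markers 4 of 5 tested were lower, and 5 of 5 with the replicate block and under the 4 other scalings. The 2% trimmed mean of the P12 arrays was 96.4 to 111.1 in control and 108.1 to 171.6 in the CKO. On this deposited scale 14% of the 21390 probe sets tested passed as higher. There 4 of 8 amacrine markers were higher, with sums of 147.0% to 206.4% of the control mean, and under the 4 other scalings 1 to 3 were. Of the Müller glia markers 4 of 6 were higher (170.2% to 219.8%), and 1 to 3 under the other scalings. Of the microglia markers 6 of 6 were higher (370.2% to 516.1%), and 5 or 6 under the other scalings. Of the retinal pigment epithelium markers 2 of 6 tested were higher, and their sums overlapped between the genotypes, at 819 to 2866 in control and 2369 to 4531 in the CKO.

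The spread among control retinas differed between the members. Across the 3 P12 control arrays the highest Guca1a signal was 4.26 times the lowest and the highest Guca1b signal 3.0 times the lowest. The ratio was 1.77 for Rd3, 1.49 for Gucy2e and 1.4 for Rcvrn. Replicate 2 was highest and replicate 1 lowest for Guca1a and Guca1b under all 5 scalings, with ratios of 2.68 to 6.46 for Guca1a and 1.76 to 4.56 for Guca1b. For Rcvrn the order changed with the scaling, and its ratio fell to 1.09 after quantile normalization within each age. The rod marker sum differed 1.29-fold among the same arrays and the cone marker sum 2.05-fold, each highest in replicate 2. With 3 control arrays these ratios are given as a description.

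**Figure D4:**
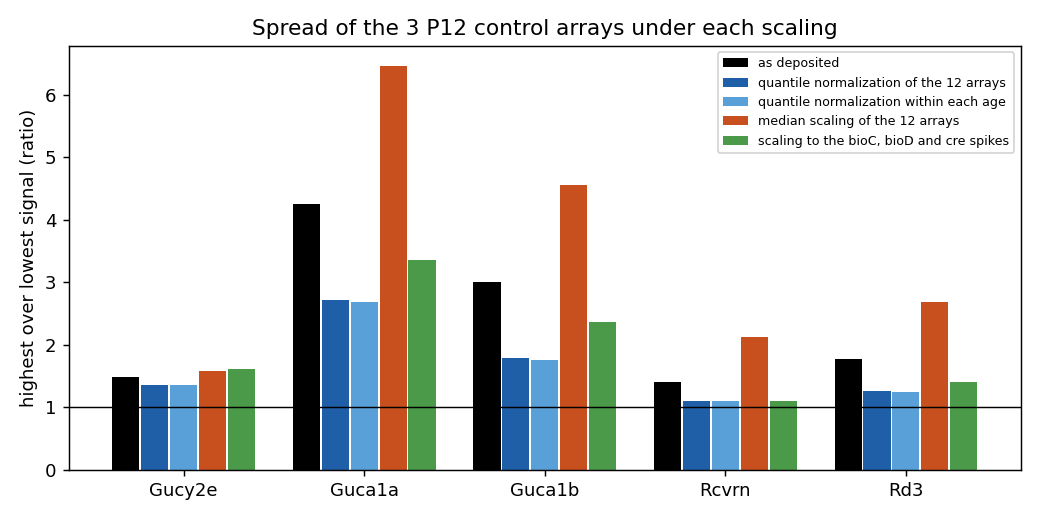
Ratio of the highest to the lowest signal among the 3 P12 control arrays for the main probe set of each gene, under 5 scalings (colours); a ratio of 1 would mean equal signals. Guca1a has the tallest bar under every scaling, from 2.68 to 6.46, and Rcvrn has the shortest as deposited, at 1.4.

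At P1 the same genes were barely detectable in either genotype. No member reached the limit of 50 in any group, so 0 of 5 were tested, while 0.179% of the 8384 probe sets tested passed as lower. Rcvrn read 27.7, 16 and 20.7 in control and 5, 1.9 and 2.7 in the CKO. Guca1a read 18.5, 16.7 and 13.4 against 1.1, 0.9 and 1.4. Rd3 on 1452355_at read 18.3, 18.8 and 12.7 against 1.4, 3.1 and 5.8. All 3 genes were low in control and lower still in each CKO array. Gucy2e was at 0.3, 1.4 and 0.3 against 0.2, 0.1 and 0.2. Guca1b overlapped, at 5.9, 0.4 and 5.7 against 1.2, 0.4 and 1.5. The control arrays lay wholly above the CKO arrays for 4 of 5 genes and 4 of 7 of their probe sets, and for 10% of all 45037 probe sets. Gucy2e is among the 4 only by readings at the floor, 0.3 against 0.2, with a log2 change of -0.04.

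The fitted log2 changes at P1 were -0.96 ± 0.25 for Rcvrn, -0.91 ± 0.40 for Guca1a and -0.75 ± 0.29 for Rd3 (SE). These SEs come from 1 fit of 4 groups, so the spread of the P12 arrays enters them. With only the P1 arrays in the fit the SEs were 0.15, 0.11 and 0.14. In the main fit the unadjusted limma p-values of these genes were 0.00232, 0.0419 and 0.0224. Without the limit, none passed over all probe sets (limma, adjusted p = 1 for each). Quantile normalization of the 12 arrays lifted Rcvrn over the limit, and it then passed with a log2 change of -1.41 (limma, adjusted p = 0.0186). An offset of 1 without the limit called Rcvrn (-2.45, limma adjusted p = 0.00980) and Guca1a (-3.01, limma adjusted p = 0.0168). The summed rod markers at P1 ran from 440.2 to 605.4 in control and from 10.2 to 46.4 in the CKO. Of the 5 rod markers 3 were under the limit in P1 control, and the 2 tested, Nrl and Sag, were lower. So some photoreceptor markers were lower with the members at this age too. The P1 control arrays were also the brighter, with 2% trimmed means of 28.5 to 30.1 against 21.8 to 27.9 in the CKO.

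The genotype difference was larger at P12 than at P1 for every member on the log2(signal + 16) scale. This was tested as the P12 change minus the P1 change, and 5 of 5 genes passed as more negative at P12, where 1.73% of 21530 probe sets did. The value was -4.53 ± 0.57 for Guca1b, -3.58 ± 0.36 for Rcvrn, -3.53 ± 0.41 for Rd3, -3.05 ± 0.57 for Guca1a and -2.22 ± 0.22 for Gucy2e (SE). The limma adjusted p ran from 0.00015 for Gucy2e to 0.00866 for Guca1a. P1 signals sat near the floor, with control means from 0.667 for Gucy2e to 21.5 for Rcvrn. A fall at P1 could therefore only be small on this scale. The test cannot separate a larger effect at P12 from that bound. With an offset of 1 and no limit only Gucy2e still passed, the gene with the lowest P1 control mean. Guca1a also missed after median scaling and with an offset of 1.

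Between P1 and P12 all 5 genes rose in the control retina. Rcvrn went from a mean of 21.5 ± 5.89 to 5577 ± 931 (SD, n = 3). With the P1 mean under the limit, this is a rise of at least 112-fold. Guca1b went from 4.0 ± 3.12 to 1788 ± 1036, at least 35.8-fold. Guca1a went from 16.2 ± 2.59 to 1296 ± 869, at least 25.9-fold, and Rd3 from 16.6 ± 3.39 to 757.8 ± 209.6, at least 15.2-fold. Gucy2e went from 0.667 ± 0.635 to 68.4 ± 13.4, at least 1.37-fold. The log2 changes ran from 2.33 for Gucy2e to 7.22 for Rcvrn, and 5 of 5 passed. All 5 reached the limit at P12 alone, so they could hardly pass as lower. However, the arrays of the later age were brighter as a whole: 82.7% of all probe sets tested passed as higher, with a median log2 change of 1.45. The 5 rises stood above that median. Rcvrn, Guca1a, Guca1b and Rd3 passed as higher under each scaling of the 12 arrays, with log2 changes of at least 3.04, whereas Gucy2e was then under the limit.

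In the CKO retina 2 of the 5 genes could be tested between the ages, and both passed as higher. Both reached the limit at P12 alone, so they could hardly pass as lower. Rcvrn was higher at P12 by a log2 change of 3.64 ± 0.25 (SE, limma, adjusted p = 2.09e-07). Guca1a was higher by 2.07 ± 0.40 (SE, limma, adjusted p = 0.00029). The other 3 genes were under the limit at each age in the CKO. Among all probe sets tested 96.2% passed as higher, with a median log2 change of 1.85, so the Guca1a value was close to the general shift. After quantile normalization, median scaling or scaling to the hybridization spikes, Guca1a was under the limit and untested, and it was so too without P12 CKO replicate 2. Rcvrn passed in all 28 alternatives, with log2 changes of 2.43 after quantile normalization, 2.26 after median scaling and 2.69 after scaling to the spikes.

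On the main probe sets the order of the 4 groups was the same for each gene, with P12 control highest, then P12 CKO, P1 control and P1 CKO. The second probe sets, at the floor at P1, had the P1 groups the other way round. Guca1b 1425441_at had means of 1.03 in P1 control and 1.3 in P1 CKO, and Rd3 1427204_at 0.8 and 1.03. Not every neighbouring pair in the order on the main probe sets was separate. The P12 CKO arrays overlapped the P1 control arrays for Gucy2e (1 to 1.8 against 0.3 to 1.4) and Rd3 (15.5 to 42.9 against 12.7 to 18.8), and the P1 groups overlapped for Guca1b. Rcvrn on the P12 CKO arrays lay above the P1 control arrays under all 5 scalings, from 146.8 to 276.1 against 16 to 27.7 as deposited. For Guca1a and Guca1b this separation was lost after quantile normalization of the 12 arrays and after median scaling, and for Guca1a also after scaling to the spikes. For Rd3 it turned round after quantile normalization of the 12 arrays, where the P12 CKO ran from 10.1 to 15.7 and the P1 control from 31.5 to 48.5, and likewise after median scaling. Gucy2e turned round after quantile normalization of the 12 arrays, at readings of 0.658 to 0.933 against 1.06 to 4.61.

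The members were not equally alike. The distance between a pair of genes was taken as the root mean square difference of their log2(signal + 16) values, each centred on its own mean over the 12 arrays. Guca1a and Guca1b were the closest pair at 0.56 and Gucy2e and Rcvrn the farthest at 2.29. Among the other named genes of the array, the closest to the mean profile of the members were Prcd at 0.197 and Ankrd33 at 0.214. A930003A15Rik at 0.249, Pitpnm3 at 0.264, Plpp2 at 0.283, Cplx4 at 0.288, Pde6a at 0.290 and Cabp5 at 0.298 followed. Prcd, a disc protein, averaged 26.6, 7.03, 1571 and 75.4 in P1 control, P1 CKO, P12 control and P12 CKO. Taken singly, the nearest gene was Pde6g for Rcvrn (0.270), Prcd for Guca1a (0.248), Rdh12 for Guca1b (0.216), Slc1a7 for Rd3 (0.225) and Lyve1 for Gucy2e (0.197). These distances describe 12 arrays in 4 groups that all share the contrast between P12 control and the rest.

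Of the genes listed around the members, some fell with them at P12 and some did not. The lists were chosen with earlier results of these data known. This split is therefore a description and no test of the pathway. Phosphodiesterase 6, which breaks down the cyclic GMP that the cyclases make, was lower in 5 of 5 genes. The mean signal of Pde6b, the rod catalytic beta subunit, was 4002 ± 693 in control and 83.8 ± 69.7 in the CKO (SD, n = 3). That of Pde6g, the rod inhibitory subunit, was 6019 ± 1431 and 192.5 ± 81.7. Pde6a changed by -4.13 on the log2 scale, and the cone subunits Pde6c and Pde6h by -3.05 and -3.51. The median of the list was -4.13.

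Of the cyclic GMP-gated channel and the calcium exchangers, 3 of 4 tested genes were lower, with a list median of -4.37. They were the rod channel subunits Cnga1 (-4.37) and Cngb1 (-4.74) and the rod exchanger Slc24a1 (-4.70). Slc24a2, the exchanger known from cones and neurons, had means of 77.1 ± 47.2 and 77.7 ± 47.6 (SD, n = 3) and did not pass (limma, adjusted p = 0.965). The cone channel subunit Cngb3 was under the limit, and Cnga3 was not analysed here.

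Among recoverin's target and the other genes of light response shutoff, 5 of 6 tested were lower, with a list median of -3.14. Grk1, the kinase that recoverin inhibits, fell by 2.88 on the log2 scale from a control mean of 140.6 ± 45.7 to 5.07 ± 5.77 (SD, n = 3). The rod arrestin Sag changed by -3.51 and the cone arrestin Arr3 by -3.39. Rgs9bp, the membrane anchor of the complex that shuts off transducin, changed by -4.22, and the complex's Gnb5 by -1.75. The catalytic member Rgs9 had means of 58.8 ± 17.8 and 76.5 ± 52.1 and did not pass (limma, adjusted p = 0.688).

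Of 7 genes for trafficking to the outer segment and the cilium, 6 were lower, and the list median was -3.29. The largest changes were those of Tulp1 (-5.05), Aipl1, the chaperone of PDE6 (-4.90), Prcd (-4.0) and Rpgrip1 (-3.29). Arl3, named after its value was seen as the gene of the list that did not pass, changed by -0.67 (limma, adjusted p = 0.108). With the replicate block, with either quantile normalization and with scaling to the spikes 7 of 7 were lower, and after median scaling 5 were.

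The lists of relatives of the members known from other cells held no gene called lower on the deposited scale without the replicate block. Of the other membrane guanylate cyclases and natriuretic peptide receptors, 5 were measured and 1, Npr2, reached the limit. Npr2, the receptor of C-type natriuretic peptide, had means of 168.1 ± 41.6 and 299.7 ± 143.3 and did not pass (limma, adjusted p = 0.131), although it passed as higher with the replicate number as a block. None of 3 soluble guanylate cyclase subunits, the nitric oxide receptors, passed. Their log2 changes were 0.47 for Gucy1a1, 1.13 for Gucy1a2 and 0.50 for Gucy1b1, and with the block Gucy1a2 passed as higher.

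Recoverin belongs to the neuronal calcium sensor family, and of 10 relatives tested 0 were lower and 3 were higher, with a median log2 change of 0.75. Among all 21390 probe sets tested 4.48% passed as lower and 14% as higher. Hpca, hippocalcin, rose by 1.51 ± 0.21 (SE) from a mean of 494.6 to 1423 (limma, adjusted p = 0.000313). Ncald, neurocalcin delta, rose by 1.17 ± 0.24 from 450.7 to 1019 (SE, limma, adjusted p = 0.00598). Kcnip3, a potassium channel and DNA-binding calcium sensor, rose by 1.06 ± 0.34 (SE, limma, adjusted p = 0.0468). These rises are to be read beside the general median of 0.39: under the 4 other scalings 1 or 2 of the relatives were higher, with Hpca among them each time, and up to 2 were lower. With the replicate block 5 were higher and 1 was lower, where 6573 of the 21390 probe sets tested were higher and 1397 lower. The sum of the amacrine markers was higher in the CKO beside these genes, and its part in their rise was not tested.

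**Figure D5:**
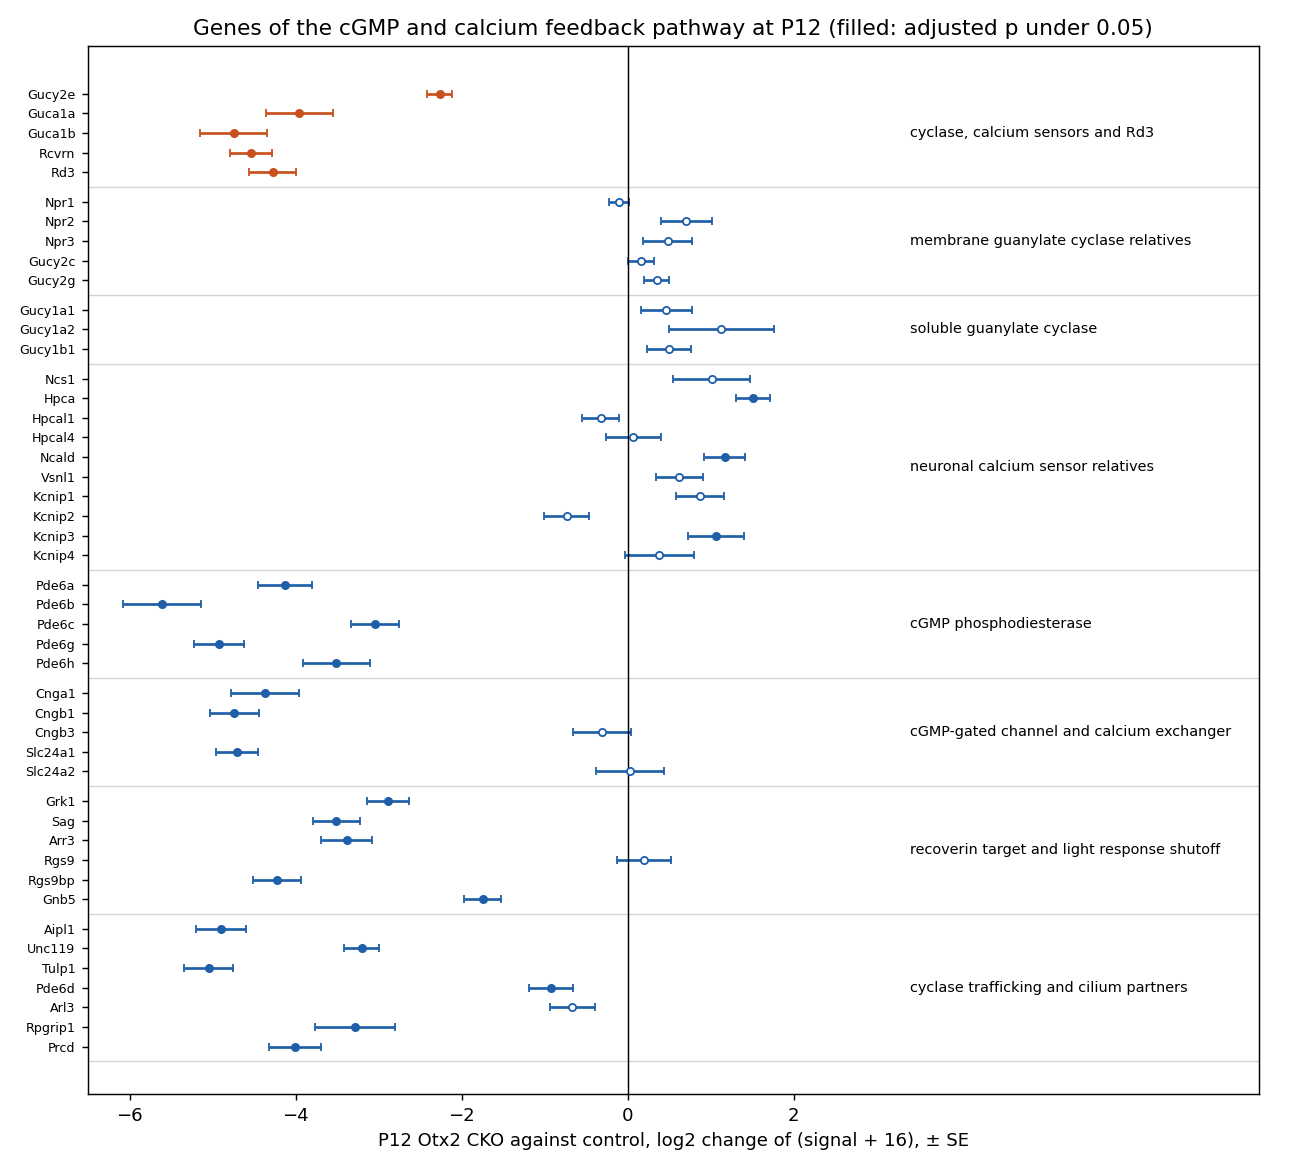
Log2 change of (signal + 16) between P12 Otx2 CKO and control, with SE, for the measured genes (orange) and the genes of 7 pathway lists (blue), filled where the adjusted p was under 0.05. The phosphodiesterase, rod channel, shutoff and trafficking genes lie mostly between -6 and -1, and the other cyclases and neuronal calcium sensors lie near or above 0.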

How the data were processed

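Total RNA of dissected mouse retina was hybridized to Affymetrix Mouse Genome 430 2.0 arrays, 12 in all. The authors determined the signal intensity of each probe set with GeneChip Operating Software 1.4 and deposited these linear intensity values without a common scaling target, so whole-array brightness enters every comparison, that between ages most. Groups were taken from title, source and genotype. Gene names came from the platform annotation (34958 probe sets with 1 symbol, 932 with several, 9211 with none), updated by Entrez ID. The 64 control probe sets were left out.

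For the tests, log2(signal + 16) was fitted with limma 3.58.1 in R 4.3.3, as 1 model of 4 groups over all probe sets (lmFit, and eBayes with a mean trend). Testing was limited to probe sets that reached a mean of 50, the study's own limit, in a contrasted group. A probe set that reached it only in the brighter group could hardly pass in the other direction. P-values were adjusted by the Benjamini-Hochberg method over all probe sets tested, with a threshold of 0.05. A fold was given only where both means reached 50. Otherwise the brighter mean over 50 was given as at least N-fold. The fit was tested on simulated data in which the arrays varied independently of each other. That check does not cover the shared deviations of same-numbered arrays described below. The number of arrays limits the precision.

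Experiment numbers paired the samples within an age: same-numbered control and CKO arrays deviated together from their group means (r from 0.14 to 0.25 at P1 and from 0.54 to 0.88 at P12). The main fit left this pairing out, and the replicate block took it into account in the genotype comparisons. Across ages the numbers were not taken to pair the samples, since r ran from -0.04 to -0.01 in control and was 0.61, 0.60 and -0.02 in the CKO.

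All probe sets of the members were reported. Of each pathway list, up to 4 genes with the largest called change at P12 were named, or all genes of a list with up to 6 measured. The 8 genes nearest in profile and the nearest gene of each member were also named. The members and lists were chosen with earlier results of these data known. Alternatives were 4 scalings, other offsets and limits, the replicate block, other fits and the omission of each array.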

Additional observations from a re-analysis of the deposited data

Results flagged for a closer look

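The genotype difference at P12 minus that at P1, on the log2(signal + 16) scale, passed the limma test of the difference itself for 6 probe sets of the 5 genes. The values were -4.53 for Guca1b 1425138_at and -2.02 for its second probe set 1425441_at, -3.58 for Rcvrn, -3.53 for Rd3 1452355_at, -3.05 for Guca1a and -2.22 for Gucy2e. At P1 the signals of these genes were at most 27.7 on any array, under the limit of 50, and the part of that in the difference was not tested. From such signals a fall at P1 could only be small on this scale, so the test cannot separate a larger effect at P12 from that bound.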

How the results depend on the processing

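The number of genes called was compared with 5 lower at P12, 0 at P1, 5 for the difference between ages, 5 higher with age in control and 2 higher with age in the CKO. At P12 and for the rise in control, each alternative gave 4 to 6 (6 where both probe sets of a gene count), and Gucy2e alone dropped out, being under the limit, after quantile normalization or median scaling of the 12 arrays, scaling to the spikes or a limit of 100. At P1, quantile normalization of the 12 arrays called 1 gene (Rcvrn). For the difference between ages, median scaling called 3 and the others with the limit kept 4 to 6. Over all probe sets at that limit, lower calls at P12 ran from 437 with only the P12 arrays in the fit to 1839 after quantile normalization within each age. For the rise with age in the CKO, quantile normalization, median scaling, the spikes and a limit of 100 each called 1, and no limit called 4. Leaving out single arrays gave 1 to 3 there: 1 without P12 CKO replicate 2 and 3 without P12 CKO replicate 3. In the other comparisons every omission gave the same count as the full set, 0 at P1 and 5 in the others.

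Further alternatives were chosen after seeing the data, each without a limit. An offset of 1 then called 2 at P1 (Rcvrn and Guca1a), 1 for the difference (Gucy2e) and 4 for the rise in the CKO. Median scaling called 1 for that rise. With the replicate block the counts were 0 at P1, 5 at P12, 5 for the difference, 5 in control and 2 in the CKO. The pairing thus changed none of these member counts, but without a limit the block called 4 in the CKO. Over all probe sets it did change the calls. At P12 1397 were lower and 6573 higher with the block, against 959 and 2990 without it. For the difference 700 were lower and 4248 higher, against 372 and 651. The causes were not tested, except that the limit itself removes dim probe sets. On the main probe sets no direction turned in any alternative for the 5 genes and the 5 comparisons. The closeness of Gucy2e, and of all members at P1, to the floor of the array limits what these data can show of them.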
